A study of Danio rerio and Aquarana catesbeiana with 12 samples.

Results

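Transcripts of 8 genes of the oxygen-sensing pathway, hif1al, hif1ab, epas1b, egln3, vhl, vegfaa, wsb1 and ak4, were followed in the retinal pigment epithelium (RPE) of zebrafish. The RPE is the pigmented cell layer that lies against the photoreceptors and serves vitamin A recycling. The genes were found by symbol in a table of 18315 transcript records, and all 8 were present with 1 record each. They were chosen by their link to hypoxia with the counts of the same hormone and vehicle libraries in view, so their hormone comparison is given as a description without a test. The hormone group held 3 libraries of RPE dissected from fish given thyroid hormone for 3 weeks, and the vehicle group held 3 libraries from fish given the vehicle for the same time. The strain, age and sex of the fish, the form and dose of the hormone and the number of fish in a sample are not given in the sources used here. Whether each replicate was its own animal is not given either, so the SDs and p-values reflect library-to-library spread that may be technical. Bullfrog contigs of the same study carry no gene names and were not analysed here.

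Cells sense falling oxygen through hypoxia-inducible factors (HIFs), transcription factors made of an alpha subunit and the constant partner ARNT. With oxygen present, prolyl hydroxylases of the EGLN family mark the alpha subunit, and the von Hippel-Lindau protein, VHL, hands it to a ubiquitin ligase for breakdown. When oxygen is low the alpha subunit escapes and switches on genes for glucose use, vessel growth and feedback, among them genes for EGLN enzymes and for vascular endothelial growth factor. In the eye, the RPE lies between the photoreceptors, which use much oxygen, and the vessels of the choroid, and in mammals it is a source of vascular endothelial growth factor. Because the alpha subunits are controlled mainly as proteins, their transcript levels do not measure HIF activity.

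The libraries held 6647597, 12530697 and 11161495 counts in the hormone group and 11739178, 10668014 and 10582772 in the vehicle group. Levels are given in CPM, a count relative to the size of its library, after TMM scaling, which adjusts the totals so that most records are level between libraries. All 15 markers of RPE had at least 1 count in every library, and so had the measured markers of rods (11 of 12 in the list), cones (11 of 12), inner retina and Muller glia (14 of 14), endothelium (10 of 12), red cells (9 of 10) and leukocytes (9 of 10). Every record had at least 1 CPM in 3 libraries, so this detection says little by itself. The lowest endothelium marker count was 1. The sums of rod markers below show that the dissected tissue also held RNA of other cells. Summed over their lists, RPE markers reached 23267 to 61786 CPM with hormone and 20112 to 21349 CPM with vehicle. Rod markers reached 42803 to 52477 CPM with hormone and 61542 to 74265 CPM with vehicle. Sums follow the most abundant markers: the mean log2 CPM of the rod markers overlapped between the groups, at 9.83, 9.08 and 9.32 with hormone and 9.70, 9.73 and 9.49 with vehicle. The RPE sums were led by rpe65a, at 12453 to 32335 CPM with hormone and 6688 to 7480 CPM with vehicle. The mean log2 CPM of the RPE markers overlapped between the groups and was lowest in hormone replicate 1, at 8.49. The ranges of the groups overlapped for cones (8669 to 20411 CPM with hormone, 9484 to 13839 CPM with vehicle), inner retina (899.6 to 1328 and 985.9 to 1178 CPM), endothelium (27.7 to 84.1 and 37.1 to 45.7 CPM), red cells (593.9 to 1545 and 1057 to 3543 CPM) and leukocytes (302.5 to 461.9 and 430.3 to 679 CPM). Of the 9 measured red cell markers, 0 had a positive log2 fold change. Among them slc4a1a was lower in every hormone library, as were 6.4% of all records. The part of blood RNA in the results was not tested. The first principal component held 50.3% of the variance and did not separate the groups, while the second, with 20.7%, did.

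**Figure D1:**
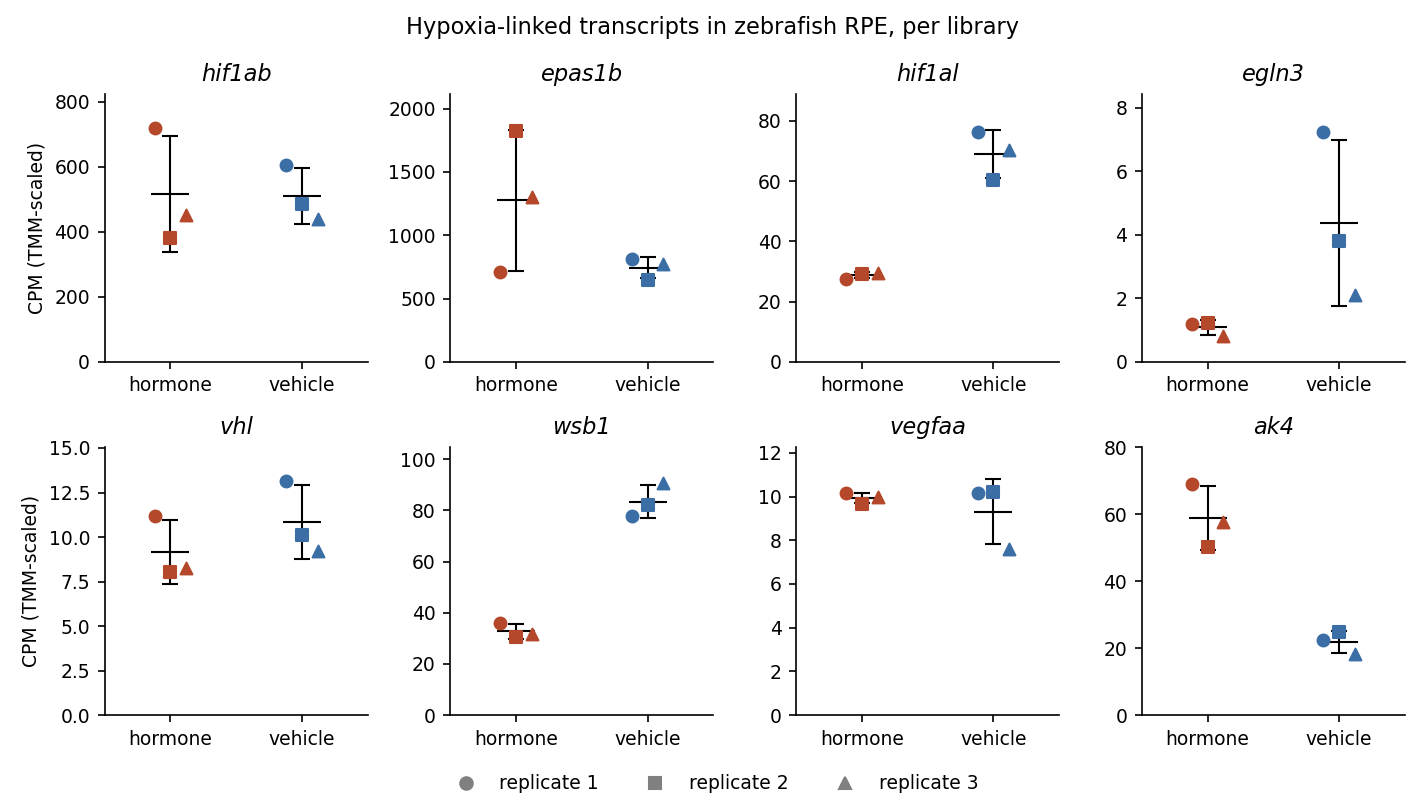
Level of each gene in CPM after TMM scaling (y axis, from 0) in the 3 hormone and 3 vehicle libraries; points are libraries, horizontal lines are group means and bars are SDs. The hormone libraries of hif1al (27.6 to 29.7 CPM), wsb1 (30.6 to 35.9 CPM) and egln3 (0.82 to 1.24 CPM) lie below all vehicle libraries, those of ak4 (50.04 to 69.0 CPM) lie above them, and the groups overlap for the other 4 genes.

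Of the 3 alpha subunit genes, hif1al stood lower with hormone, epas1b was higher in its mean with groups that overlapped, and hif1ab had nearly equal means. The gene hif1al, listed by RefSeq with the synonym Hif-3alpha, encodes a HIF alpha-like protein. It had 27.6, 29.3 and 29.7 CPM in the hormone libraries, against 76.5, 60.5 and 70.2 CPM in the vehicle libraries. The hormone libraries lay close together, with a coefficient of variation of 3.78% against 11.6% in the vehicle group, and the highest of them was 2.04-fold below the lowest vehicle library. The group means were 28.9 ± 1.09 CPM with hormone and 69.1 ± 8.02 CPM with vehicle (SD, n = 3 each), a fitted log2 fold change of -1.26 (SE 0.13) for hormone over vehicle. In such bulk samples, fewer cells of a type and less RNA per cell cannot be told apart. The summed rod markers also lay lower in all hormone libraries than in all vehicle libraries and the summed RPE markers higher, and their part in the result was not tested. The mean log2 CPM of either list overlapped between the groups. In a fit with the mean log2 CPM of the 14 inner retina markers as a covariate, an alternative chosen after seeing the data, the log2 fold change of hif1al was again -1.26. That score overlapped between the groups (3.81 to 5.09 with hormone, 4.03 to 4.90 with vehicle). It holds no marker of the rod or RPE lists, so the fit does not adjust for them.

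The gene epas1b, which encodes the alpha subunit called HIF-2 alpha in mammals, was the most abundant of the 8 by its group means. It had 706.2, 1819 and 1301 CPM in the hormone libraries, against 810.8, 648.7 and 773.7 CPM in the vehicle libraries. Hormone replicates 2 and 3 lay above all vehicle libraries, while hormone replicate 1 lay within the vehicle range. The means were 1276 ± 557 CPM with hormone and 744.4 ± 85.0 CPM with vehicle (SD, n = 3 each), a log2 fold change of 0.78 (SE 0.35), so the difference of the means was smaller than the SD of the hormone group. It was 0.44 without hormone replicate 2 and 1.07 without hormone replicate 1, and 0.54 (SE 0.22) with the inner retina covariate, which was chosen after seeing the data. The mean log2 CPM of the 15 RPE markers was likewise highest in hormone replicates 2 and 3, at 9.81 and 9.60. It was lowest in hormone replicate 1, at 8.49, with 8.83, 8.85 and 8.93 in the vehicle libraries, whereas epas1b was lowest in vehicle replicate 2. The part of the RPE share in the epas1b levels was not tested.

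The gene hif1ab, which encodes an ortholog of the mammalian HIF-1 alpha, had 718.0, 381.4 and 450.8 CPM in the hormone libraries, against 606.5, 485.6 and 440.9 CPM in the vehicle libraries. The highest and the lowest library were both of the hormone group. The means of 516.8 ± 178 CPM with hormone and 511 ± 85.7 CPM with vehicle (SD, n = 3 each) differed by a log2 fold change of 0.02 (SE 0.28). The sign turned with total count scaling (-0.0028) and with the replicate number as a block (-0.02). It also turned without hormone replicate 1 (-0.30), vehicle replicate 2 (-0.02) or vehicle replicate 3 (-0.08). Ordered by hif1ab, the libraries ran from hormone replicate 1 through vehicle replicates 1 and 2, hormone replicate 3 and vehicle replicate 3 to hormone replicate 2. The scores of the inner retina markers and of the cone markers put the 6 libraries in that same order, from 5.09 to 3.81 and from 9.88 to 8.40 mean log2 CPM. With the inner retina covariate, chosen after seeing the data, the log2 fold change of hif1ab was 0.08 (SE 0.12).

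Per kilobase of transcript, epas1b exceeded hif1ab in every library, by 1.06-, 5.13- and 3.11-fold in the hormone libraries and by 1.44-, 1.44- and 1.89-fold in the vehicle libraries. In hormone replicate 1 this rests on record length alone, since hif1ab had more counts there (5381 against 5293). The vehicle ratios lay within the hormone range. Of the summed level per kilobase of the 6 measured alpha subunit genes, which also include hif1aa, hif1al2 and epas1a, hif1al made up 1.17 to 1.80% with hormone and 4.41 to 4.61% with vehicle.

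Of the genes for oxygen sensing and protein breakdown, egln3 and wsb1 stood lower in every hormone library, and vhl had overlapping groups. The gene egln3 encodes a prolyl hydroxylase that in mammals is itself switched on by HIFs. It had 9, 15 and 8 counts, or 1.20, 1.24 and 0.82 CPM, in the hormone libraries, against 91, 42 and 21 counts, or 7.22, 3.79 and 2.10 CPM, in the vehicle libraries. The vehicle libraries were spread over a wide range, with a coefficient of variation of 59.7%, and the lowest of them came close to the hormone group. The means were 1.09 ± 0.23 CPM with hormone and 4.37 ± 2.61 CPM with vehicle (SD, n = 3 each), a log2 fold change of -2.00 (SE 0.52). It went to -1.43 when vehicle replicate 1, the highest library, was left out, and to -2.33 without vehicle replicate 3. With the inner retina covariate it was -1.72 (SE 0.46). Among the vehicle libraries, egln3 ran in the same order as the inner retina score, at 4.90, 4.64 and 4.03 mean log2 CPM, and the cone score, at 9.47, 9.28 and 8.80. Among the hormone libraries its order cannot be told. Their exact Poisson 95% intervals overlapped, at 0.55 to 2.28, 0.69 to 2.04 and 0.36 to 1.62 CPM. Hormone replicate 1 had the highest scores of all libraries, at 5.09 and 9.88, with egln3 at 1.20 CPM. Hormone replicate 2 had the lowest, at 3.81 and 8.40, with egln3 at 1.24 CPM. The summed rod and RPE markers differed between the groups as described for hif1al. The part of the inner retina, cone, rod or RPE markers in the egln3 levels was not tested. The nearest libraries of the groups were not apart beyond counting error: the exact Poisson 95% intervals were 0.69 to 2.04 CPM in hormone replicate 2 and 1.30 to 3.21 CPM in vehicle replicate 3. These intervals cover counting error only.

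The gene wsb1 encodes a WD repeat protein with a SOCS box, the substrate receptor of an E3 ubiquitin ligase that in mammalian cells acts on the deiodinase DIO2 and on VHL. It had 35.9, 30.6 and 31.7 CPM in the hormone libraries, against 77.8, 82.0 and 90.6 CPM in the vehicle libraries. The groups were apart by 2.17-fold at their nearest libraries, and both were tight, with coefficients of variation of 8.58% with hormone and 7.80% with vehicle. The means were 32.7 ± 2.81 CPM with hormone and 83.5 ± 6.51 CPM with vehicle (SD, n = 3 each), a log2 fold change of -1.35 (SE 0.13). Vehicle replicate 3, the lowest vehicle library for egln3, was the highest for wsb1. As for hif1al, the rod marker sums were lower and the RPE marker sums, led by rpe65a, higher in every hormone library. The mean log2 CPM of both lists overlapped between the groups, and the part of these markers was not tested.

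The gene vhl, for the recognition subunit that binds hydroxylated HIF alpha, had 11.2, 8.01 and 8.24 CPM in the hormone libraries, against 13.2, 10.1 and 9.20 CPM in the vehicle libraries. The hormone library highest in vhl lay between the vehicle libraries. The means were 9.15 ± 1.78 CPM with hormone and 10.8 ± 2.08 CPM with vehicle (SD, n = 3 each), a log2 fold change of -0.25 (SE 0.22), and they differed by less than the SD of either group. It was -0.42 without hormone replicate 1 and -0.08 without vehicle replicate 1.

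Of the targets, ak4 stood higher in every hormone library, and vegfaa had overlapping groups. The gene ak4 encodes a mitochondrial adenylate kinase, which in mammals is a HIF target. It had 69.0, 50.04 and 57.7 CPM in the hormone libraries, against 22.3, 24.7 and 18.3 CPM in the vehicle libraries. At their nearest libraries the groups were 2.02-fold apart. The means were 58.9 ± 9.53 CPM with hormone and 21.8 ± 3.24 CPM with vehicle (SD, n = 3 each), a log2 fold change of 1.43 (SE 0.18), or 2.70-fold. The level of ak4 was highest in hormone replicate 1, the library with the lowest RPE marker score and the highest inner retina score, and without that library the log2 fold change was 1.31. The summed RPE markers, led by rpe65a, were higher and the summed rod markers lower in every hormone library. By mean log2 CPM both lists overlapped between the groups, and the part of these markers was not tested.

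The gene vegfaa, for a vascular endothelial growth factor and a HIF target in many vertebrates, had 10.1, 9.66 and 9.99 CPM in the hormone libraries, against 10.2, 10.2 and 7.60 CPM in the vehicle libraries. The hormone libraries lay within the vehicle range. Their narrow spread is within counting error, with an exact Poisson 95% interval of 7.99 to 12.7 CPM in hormone replicate 1. The means were 9.93 ± 0.24 CPM with hormone and 9.31 ± 1.49 CPM with vehicle (SD, n = 3 each), a log2 fold change of 0.09 (SE 0.18), which became -0.03 without vehicle replicate 3. The record counted for vegfaa is 567 bases long.

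**Figure D2:**
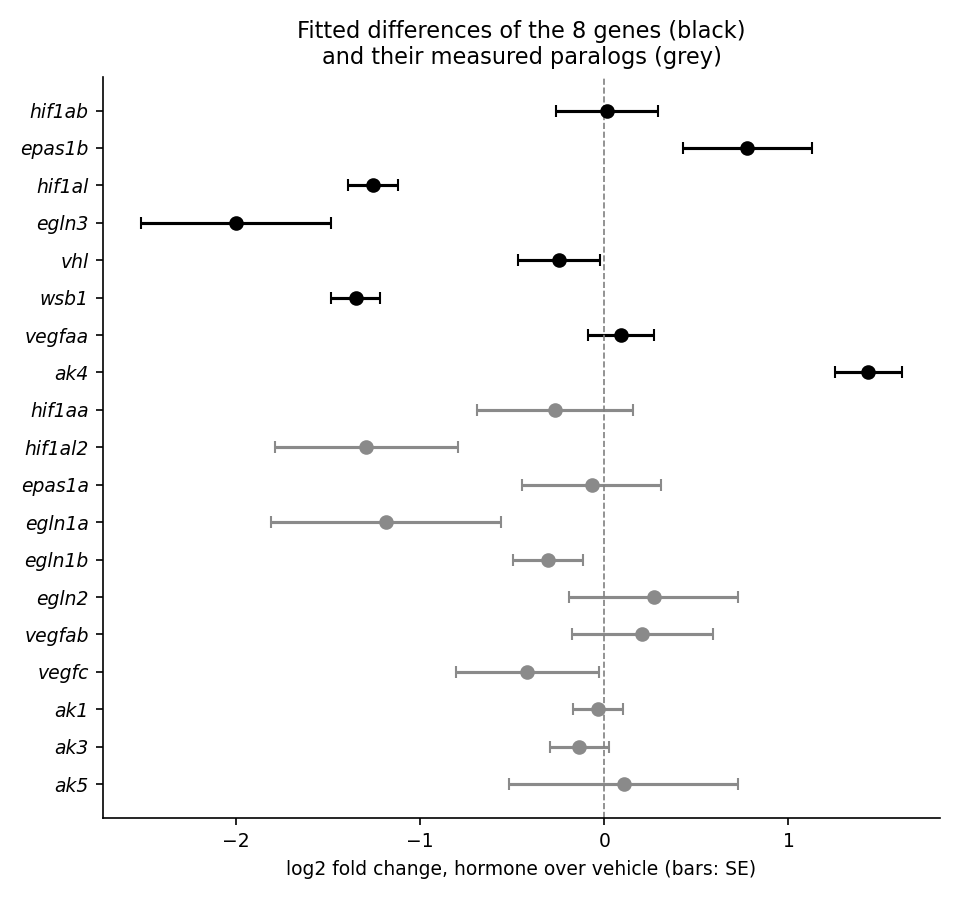
Fitted log2 fold change of hormone over vehicle (x axis) with its SE (bars) for the 8 genes (black) and for 11 measured paralogs (grey). The values of hif1al (-1.26), wsb1 (-1.35), egln3 (-2.00) and ak4 (1.43) lie farther from 0 than those of hif1ab (0.02), vegfaa (0.09) and vhl (-0.25), and among the paralogs hif1al2 (-1.29) and egln1a (-1.19) lie lowest.

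The groups did not overlap for 4 of the 8 genes, 3 lower and 1 higher with hormone. Over all records 13.3% had groups that did not overlap, 6.4% lower and 6.86% higher with hormone. Since the genes were chosen with this comparison in view, nothing follows from these shares about the pathway.

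On the level per kilobase of transcript, which allows for record length, 2 of the 8 genes stood far above the rest. Amplification of the RNA, incomplete records and reads shared by similar records can still shift a gene on this scale, so close ranks are uncertain. In the vehicle libraries epas1b (236.5 ± 27.0 CPM per kilobase) and hif1ab (150.9 ± 25.3) came first, followed by wsb1 (24.2 ± 1.89), hif1al (21.6 ± 2.51), vegfaa (16.4 ± 2.62), ak4 (9.77 ± 1.45), vhl (9.29 ± 1.78) and egln3 (2.43 ± 1.45; SD, n = 3 each). Among neighbours in that order, the library ranges of wsb1 and hif1al overlapped, and so did those of ak4 and vhl. In the hormone libraries the order was epas1b (405.2 ± 177 CPM per kilobase), hif1ab (152.6 ± 52.5), ak4 (26.4 ± 4.28), vegfaa (17.5 ± 0.43), wsb1 (9.51 ± 0.82), hif1al (9.03 ± 0.34), vhl (7.86 ± 1.53) and egln3 (0.60 ± 0.13; SD, n = 3 each). The gene ak4 was thus the third in the hormone libraries and the sixth in the vehicle libraries. By mean log2 CPM over the 6 libraries, epas1b lay above 99.6% of all records, hif1ab above 99.1%, wsb1 above 83.4%, hif1al above 80.8%, ak4 above 76.4%, vhl above 45.7%, vegfaa above 45.0% and egln3 above 12.2%. These shares are not scaled to transcript length, so they place long records higher and short ones, such as vegfaa, lower than the level per kilobase would.

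**Figure D3:**
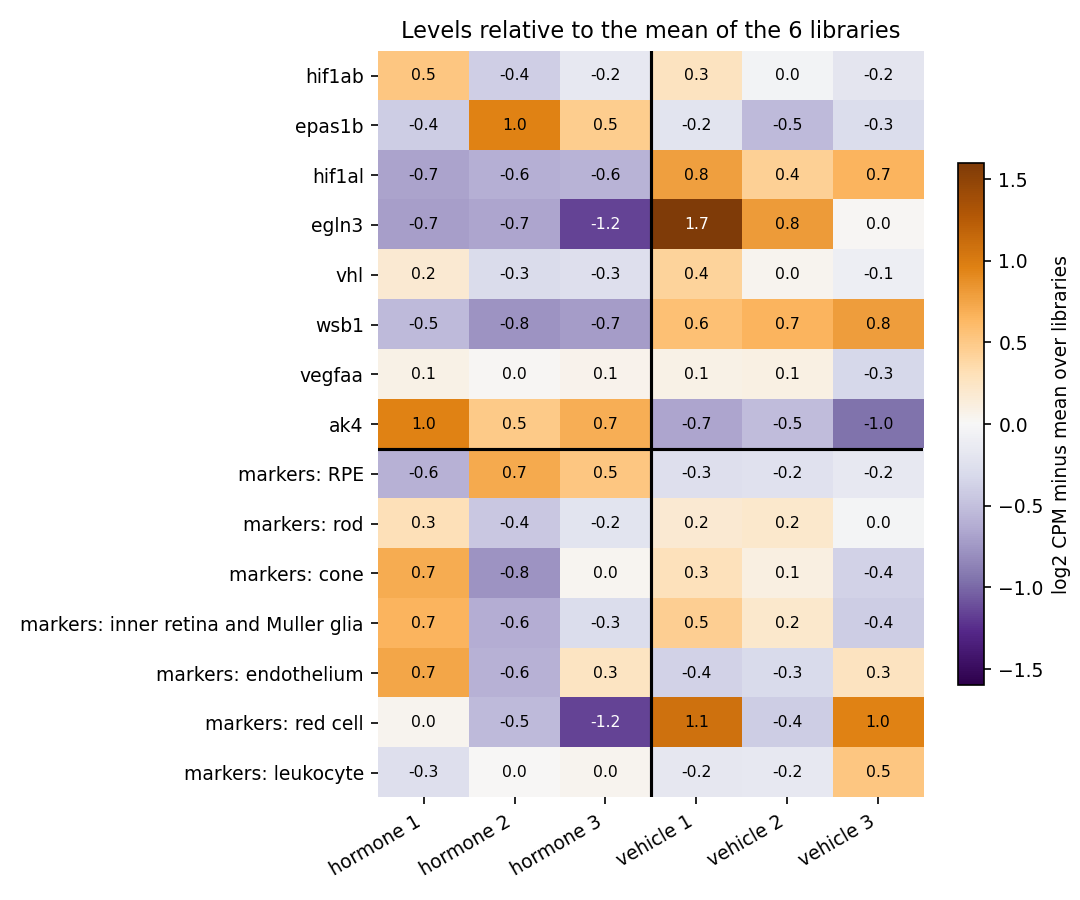
Log2 CPM of each gene, and mean log2 CPM of each marker list, minus the mean over the 6 libraries (colour and printed values), with hormone libraries left of vehicle libraries. The rows of hif1al and wsb1 run low with hormone and high with vehicle, and that of ak4 runs the other way. The egln3 row is low with hormone and high in vehicle replicates 1 and 2, but lies near its mean in vehicle replicate 3 (0.01). The gene hif1ab is highest in hormone replicate 1 (718.0 CPM) and lowest in hormone replicate 2 (381.4 CPM), as are the inner retina and cone marker lists.

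Taking each gene's log2 CPM relative to its own mean over the 6 libraries, the closest pairs among the 8 genes were hif1ab and vhl, with a root mean square difference of 0.17 on the log2 scale, and hif1al and wsb1, also with 0.17. The farthest pair was egln3 and ak4, at 1.63. By the same measure over all records averaging 1 or more on the log2 CPM scale, the 3 records most like hif1al were letm2 (0.13), phkg1b (0.14) and pde6g (0.15). Of these, pde6g is the rod phosphodiesterase subunit gene of the rod marker list, with 3847, 3458 and 4520 CPM with hormone and 8873, 7763 and 7932 CPM with vehicle. In the rod list, rho and rom1b also had all hormone libraries below all vehicle libraries, as had 6.4% of all records. The groups overlapped for the other 8 of its 11 measured genes, among them pde6a and pde6b. Of the 11, 2 had a positive log2 fold change. The part of rod RNA in the hif1al level was not tested. The records most like wsb1 were myom2 (0.09), LOC100333680 (0.14) and the Kit ligand gene kitlga (0.16). The records most like ak4 were the nuclear receptor gene nr2f6b (0.11), LOC100537436 (0.16) and rnf207b (0.16; rnf207 in the file). These lists were ranked over the same 6 libraries that show the difference between the groups.

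The 11 paralogs of the 8 genes that are described here showed no called difference. None had groups that did not overlap, against 13.3% of all records, and 11 genes are too few to tell these shares apart. With total count scaling 1 of them, ak3, was lower in every hormone library, against 7.44% of all records. Of the 11 paralogs, 3 had positive and 8 negative log2 fold changes, with a median of -0.14 against 0.01 over all records. None passed the quasi-likelihood test of edgeR, adjusted over all 18315 records at 0.05, which called 0.00546% of all records (lowest adjusted p of the paralogs 0.684). At an unadjusted p under 0.05 there was 1, against 6.88% of all records, and DESeq2, the alternative test, called none, against 1.6% of all records. Closest in size to hif1al was hif1al2, a second HIF alpha-like gene, with 10.8, 11.4 and 5.46 CPM in the hormone libraries, against 34.1, 9.56 and 24.1 CPM in the vehicle libraries. Vehicle replicate 2 lay within the hormone range of hif1al2, whose log2 fold change was -1.29 (SE 0.50, edgeR adjusted p = 0.684). The second HIF-1 alpha gene hif1aa averaged 5.82 ± 2.78 CPM with hormone and 6.93 ± 2.53 CPM with vehicle (change on the log2 scale -0.27, SE 0.42), and like hif1ab it was high in replicate 1 of both groups, at 8.81 CPM with hormone and 9.68 CPM with vehicle. The second HIF-2 alpha gene epas1a averaged 190.7 ± 95.4 CPM with hormone and 200.3 ± 17.7 CPM with vehicle (change on the log2 scale -0.07, SE 0.38).

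The other prolyl hydroxylase genes were egln1a (LOC100329385 in the file), at 1.48 ± 1.04 CPM with hormone and 3.28 ± 1.78 CPM with vehicle, egln1b (egln1 in the file), at 9.47 ± 1.20 and 11.7 ± 1.72 CPM, and egln2 (LOC559569 in the file), at 21.8 ± 12.9 and 17.95 ± 6.39 CPM (SD, n = 3 each). Their log2 fold changes were -1.19 (SE 0.62), -0.31 (SE 0.19) and 0.27 (SE 0.46), and that of egln2 was -0.32 without hormone replicate 1. The growth factor gene vegfab averaged 140.8 ± 80.4 CPM with hormone and 122.2 ± 9.85 CPM with vehicle. Its hormone libraries, at 76.6, 231.0 and 114.9 CPM, were below, above and within the vehicle range of 113.2 to 132.7 CPM. The lymphatic growth factor gene vegfc averaged 8.58 ± 4.74 CPM with hormone and 11.6 ± 1.62 CPM with vehicle. Among other adenylate kinase genes, the cytosolic ak1 (zgc:91930 in the file) averaged 50.5 ± 6.06 CPM with hormone and 51.7 ± 2.999 CPM with vehicle. The mitochondrial ak3 averaged 23.2 ± 3.04 CPM with hormone and 25.5 ± 2.99 CPM with vehicle, and ak5 (LOC100003595 in the file) 5.56 ± 3.77 and 5.08 ± 2.83 CPM. The log2 fold changes of ak1, ak3 and ak5 were -0.03, -0.14 and 0.10, against 1.43 for ak4. Leaving out a library turned the sign of the log2 fold change for hif1aa, epas1a, egln2, vegfab, ak1 and ak5. It moved that of egln1a to between -1.89 and -0.71 and that of vegfc to between -0.94 and -0.12.

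In the wider pathway, 74 genes of HIF control and HIF targets other than the 8 were described. Of these, 29 had positive and 45 negative log2 fold changes (median -0.04, against 0.01 over all records). Their lists were drawn up with earlier results of these data known. The counts and p-values below are therefore descriptive and give no independent support. None of the 74 passed edgeR over all records (lowest adjusted p 0.350), 11 had an unadjusted p under 0.05, 2 higher and 9 lower with hormone, and DESeq2 called 3, all lower. The 11 became 21 without hormone replicate 1 and 7 without hormone replicate 2 or hormone replicate 3. The count over all 18315 records moved likewise, from 1260 to 2734, 1180 and 872 without hormone replicates 1, 2 and 3. Over all records the unadjusted share was 3.7% higher and 3.18% lower, and DESeq2 called 0.907% higher and 0.688% lower with hormone. Groups that did not overlap were lower with hormone for 7 of the 74 (9.46%) and higher for 4 (5.41%), against 6.4% and 6.86% of all records. With total count scaling they were lower for 5 and higher for 3, against 7.44% and 4.48% of all records: ndrg1b, tpi1a, higd1a and cul2 then overlapped and vldlr came apart.

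The machinery list had 15 measured genes beside egln3 and vhl, with a median log2 fold change of -0.02. The 6 partners and coactivators, among them arnt and ep300a, ranged from -0.15 to 0.08. Of the ubiquitin ligase subunits, elocb (tceb1b in the file), for elongin C, had 24.2, 25.1 and 27.6 CPM with hormone, against 20.4, 21.7 and 23.5 CPM with vehicle (change on the log2 scale 0.23, SE 0.13, edgeR adjusted p = 0.849). The scaffold gene cul2 had 39.1, 45.5 and 42.3 CPM with hormone, against 38.6, 38.8 and 36.7 CPM with vehicle (change on the log2 scale 0.15, SE 0.12, edgeR adjusted p = 0.918). In both genes the nearest libraries of the groups differed by less than the SD within either group.

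**Figure D4:**
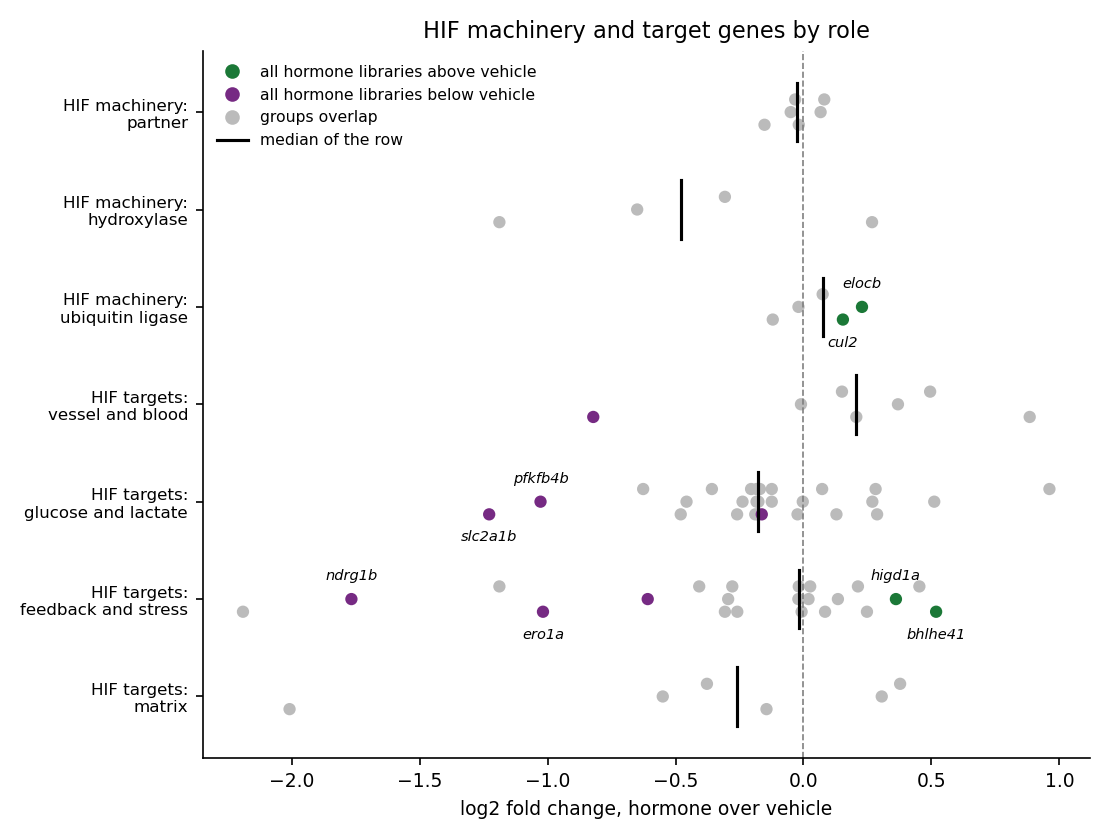
Log2 fold change of hormone over vehicle (x axis) of each measured gene of HIF control and HIF targets, by role, without the 8 genes; colours mark genes whose hormone libraries all lie above or all below the vehicle libraries, and black lines are row medians. The lowest values with groups apart are ndrg1b (-1.77), slc2a1b (-1.23), pfkfb4b (-1.03) and ero1a (-1.02), while the medians of the rows lie between -0.48 and 0.21.

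The target list had 62 measured genes beside vegfaa, ak4, egln3 and wsb1, 23 with positive and 39 with negative log2 fold changes (median -0.13). By role the medians were 0.21 for 7 genes of vessels and blood, -0.18 for 27 of glucose and lactate, -0.02 for 22 of feedback and stress and -0.26 for 6 of matrix. The 4 with groups apart and the smallest p on the lower side were slc2a1b, pfkfb4b, ero1a and ndrg1b. The glucose transporter gene slc2a1b had 45.4, 102.6 and 81.05 CPM in the hormone libraries, against 178.0, 172.2 and 187.0 CPM in the vehicle libraries. All hormone libraries lay below the tight vehicle group, at a log2 fold change of -1.23 (SE 0.29, edgeR adjusted p = 0.350, DESeq2 adjusted p = 0.0165). Its paralog slc2a1a averaged 314.1 ± 94.4 CPM with hormone and 257.3 ± 84.7 CPM with vehicle, with groups that overlapped.

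The gene pfkfb4b (pfkfb4l in the file), for an enzyme that sets the level of the glycolysis activator fructose bisphosphate, had 16.7, 25.4 and 26.3 CPM with hormone, against 45.3, 35.9 and 58.6 CPM with vehicle (change on the log2 scale -1.03, SE 0.25, edgeR adjusted p = 0.379, DESeq2 adjusted p = 0.0411). The stress response gene ndrg1b (ndrg1l in the file) had 143.6, 67.6 and 92.6 CPM with hormone, against 494.2, 377.5 and 160.7 CPM with vehicle. Vehicle replicate 3 stood near the hormone group for ndrg1b, as it did for egln3 (change on the log2 scale -1.77, SE 0.46, edgeR adjusted p = 0.420, DESeq2 adjusted p = 0.0174). The oxidoreductase gene ero1a (ero1l in the file), which serves disulfide formation, had 1.87, 2.31 and 1.65 CPM with hormone, against 4.28, 3.70 and 3.90 CPM with vehicle (change on the log2 scale -1.02, SE 0.26, edgeR adjusted p = 0.412).

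On the higher side, the clock-linked repressor gene bhlhe41 had 24.5, 27.8 and 34.5 CPM with hormone, against 17.1, 20.8 and 22.7 CPM with vehicle (change on the log2 scale 0.52, SE 0.18, edgeR adjusted p = 0.643). The mitochondrial gene higd1a (hig1 in the file) had 40.8, 46.2 and 44.4 CPM with hormone, against 37.1, 30.9 and 34.3 CPM with vehicle (change on the log2 scale 0.36, SE 0.13, edgeR adjusted p = 0.644). Neither passed DESeq2.

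Of the deiodinase genes, whose enzymes activate or inactivate thyroid hormone, dio2, whose mammalian product is a substrate of WSB1, had 7.34, 3.06 and 4.12 CPM with hormone, against 14.8, 8.39 and 5.30 CPM with vehicle, with groups that overlapped (change on the log2 scale -0.99, SE 0.47, edgeR adjusted p = 0.789). It was -0.52 without vehicle replicate 1 and -1.41 without hormone replicate 1. The inactivating dio3b (LOC798872 in the file), whose mammalian counterpart is a HIF target, had 83.3, 76.8 and 105.1 CPM with hormone, against 21.2, 24.6 and 36.6 CPM with vehicle (change on the log2 scale 1.69, SE 0.24, edgeR adjusted p = 0.133), and DESeq2 called it (adjusted p = 9.7e-07).

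**Figure D5:**
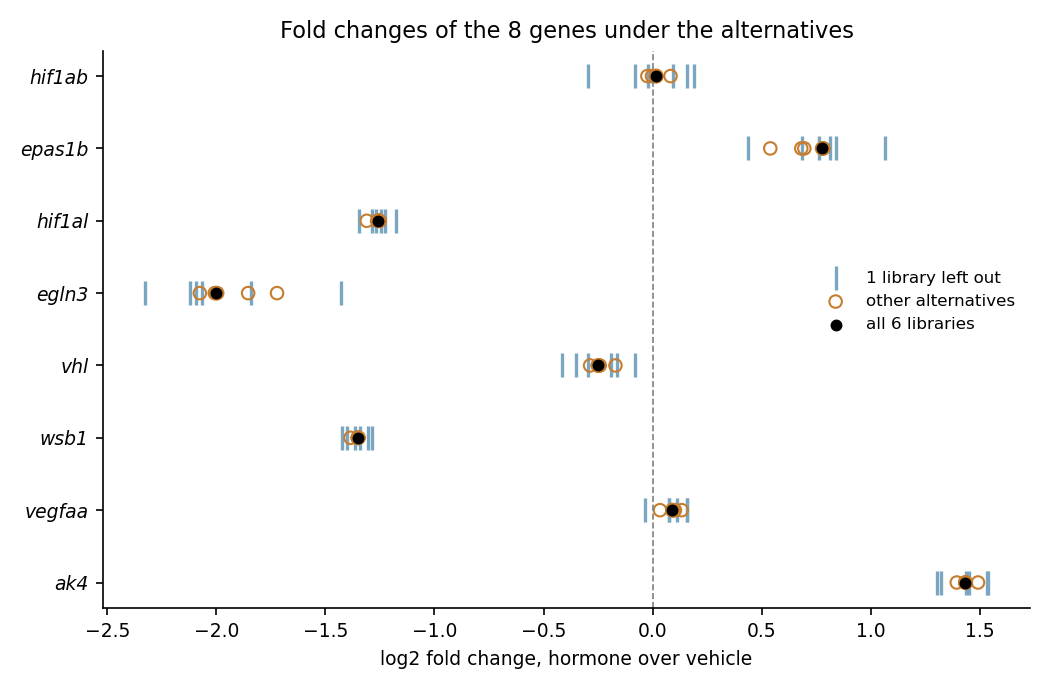
Log2 fold change of hormone over vehicle (x axis) of each of the 8 genes with all libraries (black), with 1 library left out (blue ticks) and under the other alternatives (open circles). The values of hif1al stay between -1.34 and -1.18, those of wsb1 between -1.42 and -1.29 and those of ak4 between 1.31 and 1.54, while hif1ab (-0.30 to 0.19) and vegfaa (-0.03 to 0.16) lie on both sides of 0.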

How the data were processed

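Zebrafish RNA was taken with a column kit and amplified from total RNA, and the 6 libraries shared a lane, per the labels' protocols. Bowtie 0.12.7 and edgeR are named, per the submitters' processing notes. The authors deposited raw counts per transcript record and a rounded RPKM score for each library; all 109890 of these whole-number scores matched the count over length and total within 0.6% and rounding. A nameless entry equal to the column totals was left out. All 18315 records had at least 1 CPM in 3 libraries, and filterByExpr removed none. The gene egln3 reached 1 CPM in all 3 vehicle libraries but not in hormone replicate 3 (0.82 CPM after TMM scaling). It thus met that level within a group only with vehicle, where it was higher. Strand and the treatment of reads shared by similar records are not given in the sources used here.

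Records were fitted by quasi-likelihood in edgeR 4.0.16 (R 4.3.3) after TMM scaling and Benjamini-Hochberg adjustment over all records at 0.05; an SE is the log2 fold change over the square root of F. Log2 CPM used a prior count of 2. DESeq2 1.42.0 was an alternative. The fits were tested on simulated counts with 200 changed genes. The 8 genes and all lists were chosen with earlier results of these data known. File symbols of other names were matched by accession to RefSeq (GRCz12tu, 12528 records matched), and the most abundant record stood for a symbol. Named were the 8 genes, their paralogs (1 of which is not reported here), deiodinases and globins whatever their values, up to 4 pathway genes a side with the smallest p, groups apart and mean log2 CPM of at least 1, and the 3 records most like hif1al, wsb1 and ak4; slc2a1a, pde6g and arnt with ep300a were mentioned after values were seen. The alternatives were RLE and total count scaling, DESeq2, no filter, a threshold of 0.01, a replicate block, each library left out, all records of a symbol and, added later, the inner retina score as a covariate.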

Additional observations from a re-analysis of the deposited data

How the results depend on the processing

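All 96 recomputed log2 fold changes of the 8 genes, 12 alternatives each, moved by less than 1 SD of the replicates, and the sign turned for hif1ab in 5 and for vegfaa in 1. That yardstick is wide and shows little: with 3 libraries a group, leaving 1 out can hardly move the difference that far. The fit with no filter repeats the main fit, since no record was removed. Within the yardstick, epas1b went from 0.44 without hormone replicate 2 to 1.07 without hormone replicate 1. The 4 genes with groups apart were 4 with total count scaling too. The count of records called by edgeR was 1, and 8 with total count scaling, 292 with DESeq2, 0 at a threshold of 0.01, 603 with the inner retina covariate and 0 to 105 with 1 library left out, the 105 without hormone replicate 1. Of the 74 wider pathway genes DESeq2 called 3 and the covariate fit 5 (cxcr4b, slc2a1b, pfkfb4b, pdk1 and ndrg1b), against 0. Why the counts moved was not tested. With the replicate number as a block 0 records and 0 of the 74 genes were called. The deviations of same-numbered libraries from their group means correlated with r of 0.46, -0.39 and 0.10. Not every library was closest to its own number. With 3 libraries a group, these values cannot show whether same-numbered samples were collected or processed together. Each of the 8 genes has 1 record, so summing records changes nothing. Low counts limit egln3 most.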

Other observations

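Outside the rule for named genes, ankrd37 and p4ha1b were picked after their values were seen. The HIF target ankrd37, for an ankyrin repeat protein, had 2.80, 1.24 and 2.27 CPM in the hormone libraries, against 12.4, 13.4 and 2.499 CPM in the vehicle libraries (change on the log2 scale -2.19, SE 0.66, edgeR adjusted p = 0.528). The collagen prolyl hydroxylase subunit gene p4ha1b had 3.20, 1.24 and 1.75 CPM with hormone, against 12.3, 9.56 and 2.499 CPM with vehicle (change on the log2 scale -2.01, SE 0.64, edgeR adjusted p = 0.575). In both, as in egln3 and ndrg1b, vehicle replicate 3 was the lowest vehicle library, and for ankrd37 and p4ha1b it lay within the hormone range. Vehicle replicate 3 was also the vehicle library with the lowest inner retina score (4.03 mean log2 CPM, against 4.90 and 4.64) and the lowest cone score (8.80, against 9.47 and 9.28). Hormone replicate 1 had the highest scores of all libraries (5.09 and 9.88), with ankrd37 at 2.80 CPM and p4ha1b at 3.20 CPM. The part of these markers was not tested. The factor inhibiting HIF, an asparagine hydroxylase encoded by hif1an, averaged 10.5 ± 2.90 CPM with hormone and 16.4 ± 3.58 CPM with vehicle (SD, n = 3 each; change on the log2 scale -0.65, SE 0.27, edgeR adjusted p = 0.723), and was likewise named after its values were seen.

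Of the oxygen-binding globins, myoglobin (mb) was the most abundant, at 919.2, 2354 and 3356 CPM with hormone, against 1350, 1367 and 2149 CPM with vehicle, and its groups overlapped (change on the log2 scale 0.45, SE 0.48, edgeR adjusted p = 0.957, and 0.01 without hormone replicate 3 or 0.82 without hormone replicate 1). The cytoglobin gene cygb1 had 43.4, 42.5 and 45.4 CPM with hormone, against 39.3, 40.0 and 36.8 CPM with vehicle, a small difference with groups that overlapped under total count scaling (change on the log2 scale 0.18, SE 0.11, edgeR adjusted p = 0.877). The globin genes ngb and xgb averaged 1.49 ± 1.02 and 1.37 ± 1.01 CPM with hormone, against 1.96 ± 1.17 and 0.87 ± 0.32 CPM with vehicle (SD, n = 3 each). The remaining deiodinase gene dio1 averaged 62.7 ± 33.2 CPM with hormone and 59.0 ± 6.41 CPM with vehicle (change on the log2 scale 0.09, SE 0.43), and the sign turned with total count scaling (-0.02).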
